A study of Homo sapiens with 8 samples.

Results

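EFEMP1, FCGR2A, SHC4, LSAMP, CTSG and NCKAP1 were studied as 6 genes whose messenger RNA averaged far below the control mean with both SIRT1 hairpins, out of 18133 gene symbols in the deposited table. All 6 averaged 10 or more normalized counts over the 8 libraries, as did the 13885 genes tested. EFEMP1 did so only through the control libraries, averaging 8.83 and 7.55 with the SIRT1 hairpins. The libraries came from DND41, an established human cell line of T-cell acute lymphoblastic leukemia, in which 72 h of doxycycline switched on a short hairpin RNA. In 3 libraries (A, B and C) this was the SIRT1 hairpin sh1 and in 3 (A, B and C) the SIRT1 hairpin sh3, both labelled as SIRT1 inhibited, and in 2 libraries (A and C) it was a control hairpin, so that control cells received doxycycline as well. The labels do not say what the numbers in sh1 and sh3 denote, nor whether the cells plated in triplicate came from separate infections. The p-values therefore reflect variation among the plated cultures and this may be technical only. The 6 genes were picked on the gap between SIRT1 hairpins and control, and that gap is therefore given as a description with no test. The difference between sh1 and sh3 was tested, with the limit that choosing genes low with both constructs favours genes in which the constructs differ little.

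SIRT1 is a nuclear enzyme that consumes NAD to remove acetyl groups from histones and from transcription factors. The 6 genes share no pathway. EFEMP1 encodes fibulin-3, a secreted glycoprotein of the extracellular matrix, and LSAMP encodes a cell adhesion protein of the IgLON family that is anchored to the membrane by a lipid and is best known from neurons of the limbic system. FCGR2A encodes an activating low-affinity receptor for the Fc part of IgG, typical of myeloid cells and platelets. SHC4 encodes an adaptor that links phosphorylated receptors to GRB2. CTSG encodes cathepsin G, a serine protease stored in neutrophil granules, and NCKAP1 encodes a subunit of the WAVE complex, which drives branching of actin filaments at the cell edge.

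The sum of normalized counts ranged from 33087820 to 34072666 over the libraries, and between 326 and 544 rows per library were at 0. SIRT1 itself stood at 1259, 1312 and 1329 normalized counts with sh1, at 1099, 1217 and 1179 with sh3, and at 1745 and 1919.5 in the controls, so that all 6 hairpin libraries lay below both controls. The description of library sh3 C names the control hairpin, against its title and genotype. In that library EFEMP1 stood at 13.0, FCGR2A at 24.9, SHC4 at 44.5, LSAMP at 64.0, CTSG at 38.2 and NCKAP1 at 27.7 normalized counts, each below both controls, which the choice of genes fixed. Over the genes tested, the Spearman correlation of sh3 C was 0.996 with each of sh3 A and sh3 B. It was 0.992 to 0.993 with the sh1 libraries, 0.992 with control A and 0.991 with control C. For sh3 A and sh3 B it was 0.991 and 0.991 with control A, and 0.990 and 0.989 with control C. Of the sh3 libraries, sh3 C was thus the most like the controls. The library was kept with sh3 by its title and genotype. Of 10 T lineage markers 8 had a row, while CD5 and PTCRA had none. The highest was CD3E, between 18528 and 21689 in the hairpin libraries and at 24188 and 26148 in the controls. CD3D, CD3G, CD247, CD7 and LCK were also high, the lowest value being 3842 for CD247 in sh1 A. CD2 lay between 17.3 and 63.1 over the libraries, and TRBC2 did not exceed 7.64. The B lineage marker CD79A averaged 22051 over the libraries and CD3E 21313, so these levels do not settle the cell type. Tested were 7 of the 8 T lineage markers. All 7 were lower by limma with the hairpins together, as were 6.19% of all genes tested. With sh1 alone 6 of the 7 were lower, CD3G being the exception (0.044, limma adjusted p = 0.654; -0.44 with sh3, adjusted p = 0.000186).

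In all 6 genes every hairpin library lay below both controls, as it did in 11.4% of the genes tested, a share from which nothing is read here because the genes were picked for it. The word lost described EFEMP1 best. It was the only member whose mean was below 10% of the control mean with both constructs, and CTSG kept 33.3% of the control level with sh1. Among genes that averaged 50 or more and had every hairpin library below both controls, EFEMP1 had the second largest fall and CTSG the 11th. Over all genes tested their ranks were 2 and 31. The ranks use the gap the genes were picked on, and EFEMP1 averaged 50 or more only through the controls. They are therefore a description only. In bulk RNA, fewer cells that express a gene and less RNA per cell cannot be told apart.

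**Figure D1:**
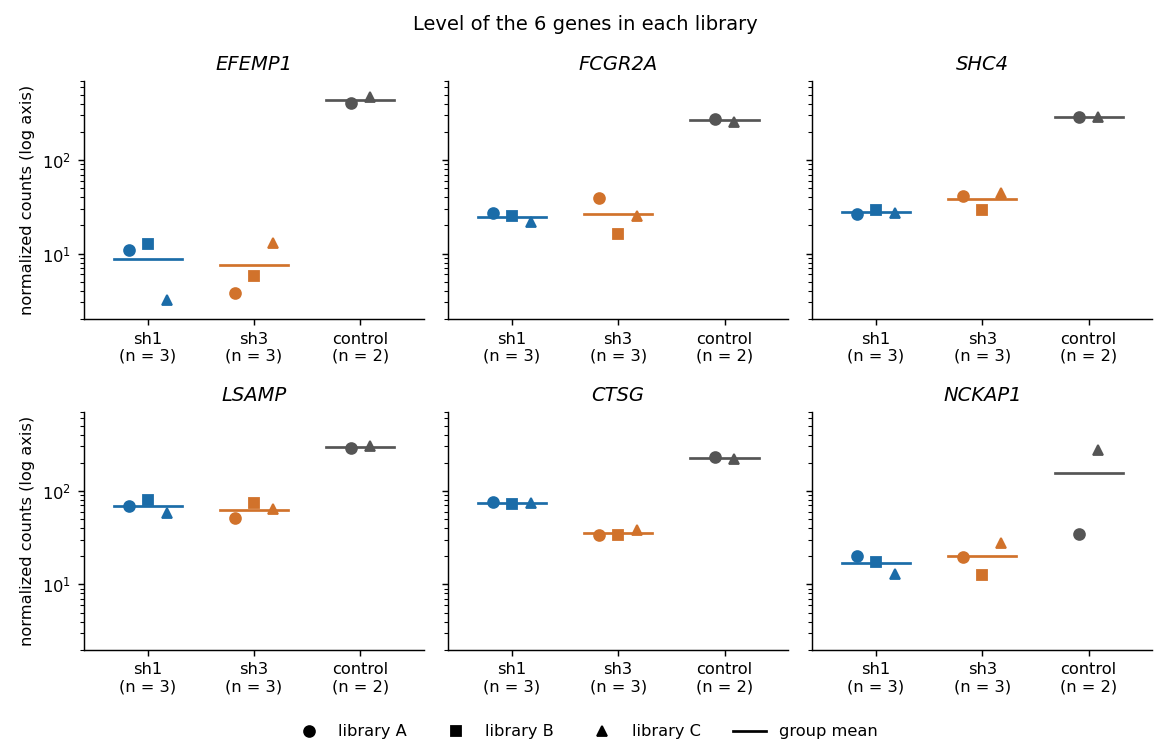
Normalized counts (log axis) of the 6 genes in each library, with sh1, sh3 and control from left to right in each panel, points for libraries and a horizontal line for the group mean. The hairpin libraries lie below both controls in every panel; in NCKAP1 control A, at 34.6, lies close to the hairpin libraries and control C, at 276, far above them.

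EFEMP1 stood at 10.8, 12.5 and 3.20 normalized counts with sh1 and at 3.83, 5.79 and 13.0 with sh3, against 406 and 478 in the controls. The lowest control was 31.1 times the highest hairpin library, the widest gap of the 6 genes. The mean of the sh1 libraries was 8.83 ± 4.95 and that of the sh3 libraries 7.55 ± 4.85 (SD, n = 3 each), against 442 ± 51.1 in the controls (SD, n = 2), or 1.998% and 1.71% of control. Within a hairpin its libraries were the least even of the set, with a standard deviation of 56.1% of the mean with sh1 and 64.2% with sh3, at levels of only a few normalized counts. The difference between the arms was -5.75 ± 0.49 (SE) in log2(normalized counts + 1), the scale of all log2 differences here, which understates the change of low genes.

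FCGR2A stood at 27.3, 25.5 and 21.7 normalized counts with sh1 and at 39.0, 16.1 and 24.9 with sh3, against 274 and 256 in the controls. The lowest control was 6.58 times the highest hairpin library, and the log2 difference was -3.36 ± 0.29 (SE). Its hairpin means were 9.36% of control with sh1 and 10.0% with sh3. FCGR2A lies at chromosome 1, 161505430 to 161524013 (GRCh38, GENCODE 29), beside near-identical paralogs, and reads could be split between copies. The inhibitory paralog FCGR2B did not exceed 5.54 normalized counts in any library.

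SHC4 stood at 26.6, 29.1 and 27.4 normalized counts with sh1 and at 41.2, 29.2 and 44.5 with sh3, against 290.0 and 286 in the controls. The controls differed by -0.018 in log2, the smallest gap between them in the set, and the hairpin libraries were at most 44.5. The mean was 9.61% of control with sh1 and 13.3% with sh3, and the log2 difference between the arms was -3.12 ± 0.20 (SE). The gene EID1, an inhibitor of EP300-dependent differentiation, lies within SHC4 on the opposite strand (chromosome 15, SHC4 at 48823735 to 48963444). EID1 was not called (0.066 ± 0.048 in log2, SE, limma adjusted p = 0.405), and no source used here says whether the counting took account of strand.

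LSAMP stood at 69.3, 79.9 and 57.7 normalized counts with sh1 and at 51.1, 74.4 and 64.0 with sh3, against 291 and 299.7 in the controls. All hairpin libraries lay between 51.1 and 79.9, so that sh1 and sh3 overlapped widely, and the means were 23.4% and 21.4% of control. The log2 difference between the arms was -2.16 ± 0.18 (SE). LSAMP is the longest gene of the set, 1337 kb on chromosome 3 (115802363 to 117139389), and 12 other annotated genes lie within it.

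CTSG stood at 76.7, 72.3 and 73.8 normalized counts with sh1 and at 33.6, 33.9 and 38.2 with sh3, against 228 and 219 in the controls. The 3 groups did not overlap, with sh3 lowest and sh1 between sh3 and control. The mean was 33.3% of control with sh1 and 15.8% with sh3, and the log2 differences from control were -1.57 ± 0.17 with sh1 and -2.63 ± 0.17 with sh3 (SE). CTSG is the shortest gene of the set, 2.74 kb on chromosome 14 (24573522 to 24576260), within the cluster of granule proteases that also holds CMA1, GZMH and GZMB.

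NCKAP1 stood at 20.3, 17.4 and 12.8 normalized counts with sh1 and at 19.6, 12.6 and 27.7 with sh3, against 34.6 and 276 in the controls. Control C was 7.99 times control A, and control A was only 1.25 times the highest hairpin library. A gap between the controls at least as wide was found in 38 of the 13885 genes tested and in 2 of the 11399 that averaged 50 or more, NCKAP1 included in both, while the median gap over all genes tested was 0.11 in log2. NCKAP1 averaged 52.7 and reached 50 only through control C, the library that also makes the gap. Nothing is therefore read from the count of 2. The log2 difference between the arms was -2.41 ± 0.60 (SE), -3.89 without control A and -0.93 without control C, so that its size rests on control C. Of the 6 genes, NCKAP1 was the only one whose controls differed by more than the 95th percentile of all genes tested, 0.80.

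The constructs were also compared with each other, within the limit set by the choice of genes. CTSG was the only member that differed between sh1 and sh3, at 74.2 ± 2.22 normalized counts in sh1 libraries and 35.3 ± 2.58 in sh3 libraries (SD, n = 3 each). This is a log2 difference of 1.06 ± 0.16 (SE, 95% interval 0.71 to 1.40, limma adjusted p = 0.00118), and all 3 sh1 libraries lay above all 3 sh3 libraries. Of all genes tested, 11.4% differed between the constructs, and nothing is read from 1 of 6 beside it, since the choice favoured genes low with both. SHC4 averaged 27.7 ± 1.28 in sh1 libraries and 38.3 ± 8.04 in sh3 libraries (SD, n = 3 each), a difference of -0.43 with an interval of -0.88 to 0.0078 (limma adjusted p = 0.201).

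For the other 4 genes no difference between constructs was established, and the intervals show what sizes remain possible. For LSAMP the difference of 0.13 had an interval of -0.27 to 0.53 (limma adjusted p = 0.719), the narrowest of these 4. For FCGR2A it was -0.018 (-0.65 to 0.61, limma adjusted p = 0.980). For EFEMP1 it was 0.18 (-0.89 to 1.25, limma adjusted p = 0.861) and for NCKAP1 -0.19 (-1.499 to 1.12, limma adjusted p = 0.881), the 2 widest intervals of the set. EFEMP1 averaged under 10 normalized counts with each construct and entered the test only through the controls. Its comparison of the constructs is therefore a description only. Leaving out sh3 C, the library with conflicting labels, gave differences between the constructs of 1.11 for CTSG (limma adjusted p = 0.00288), 0.61 for EFEMP1, -0.023 for FCGR2A, -0.32 for SHC4, 0.15 for LSAMP and 0.069 for NCKAP1. The value of EFEMP1 became larger and that of NCKAP1 changed sign, neither past the threshold (adjusted p 0.503 and 0.967). Without sh3 C the log2 differences between the arms were -5.96 for EFEMP1, -3.36 for FCGR2A, -3.18 for SHC4, -2.17 for LSAMP, -2.13 for CTSG and -2.54 for NCKAP1.

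**Figure D2:**
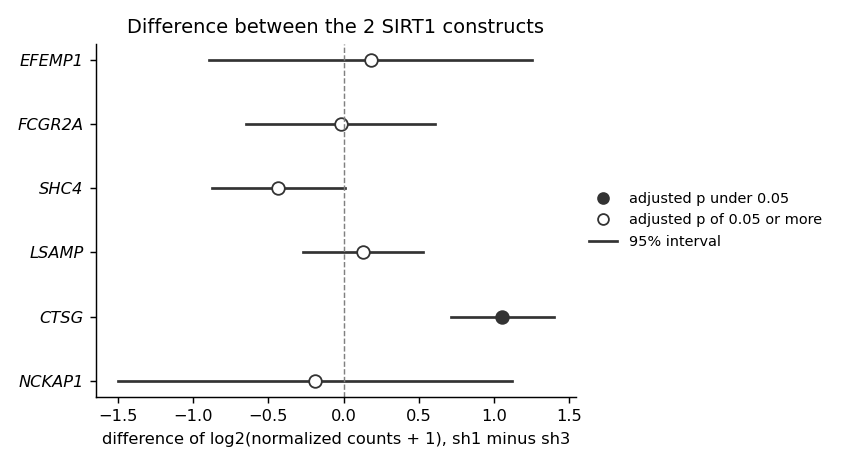
Difference between the SIRT1 constructs for each gene, as sh1 minus sh3 in log2(normalized counts + 1), with the 95% interval from limma; the filled point is past an adjusted p of 0.05. The interval of CTSG, 0.71 to 1.40, lies wholly above 0, and those of the other 5 genes include 0.

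Promoter sequences were available for 5 of the 6 genes, from 250 bases before to 50 after the RefSeq start (GRCh38.p14), and EFEMP1 had none in the table used. They are shown because all 5 genes averaged far below the control mean while their promoters differ in composition. For NCKAP1 the size of that fall rests on control C. CTSG, called between the constructs, and NCKAP1 mark the ends of the range of CpG dinucleotides, with 3 of them and 53.0% G and C in CTSG (chr14:24576201-24576500, minus strand) and 40 and 75.3% in NCKAP1 (chr2:183038408-183038707, minus strand). In both sequences capitals mark each CpG.
CTSG: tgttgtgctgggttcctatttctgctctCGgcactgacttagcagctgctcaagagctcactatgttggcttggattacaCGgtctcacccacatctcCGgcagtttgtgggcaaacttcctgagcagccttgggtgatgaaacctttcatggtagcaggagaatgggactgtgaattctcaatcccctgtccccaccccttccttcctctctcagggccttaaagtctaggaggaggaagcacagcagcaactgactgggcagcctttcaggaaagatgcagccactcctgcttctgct
NCKAP1: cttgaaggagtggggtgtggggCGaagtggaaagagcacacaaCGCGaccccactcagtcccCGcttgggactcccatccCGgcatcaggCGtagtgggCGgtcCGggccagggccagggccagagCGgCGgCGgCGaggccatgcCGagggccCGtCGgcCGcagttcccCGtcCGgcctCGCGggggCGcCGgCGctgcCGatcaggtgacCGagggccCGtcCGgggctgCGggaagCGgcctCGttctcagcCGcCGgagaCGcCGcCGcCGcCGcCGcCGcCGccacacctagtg
Over the 35116 windows of the table the median was 14 CpG and 58.7% G and C, and FCGR2A with 4, SHC4 with 6 and LSAMP with 8 CpG also lay below that median. G and C made up 39.3% in SHC4, the lowest of the 5, 45.0% in FCGR2A and 64.7% in LSAMP.

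FCGR2A (chr1:161505207-161505506, plus strand) and SHC4 (chr15:48963870-48964169, minus strand) were the members with a match to a searched motif, which is in capitals. The motifs, searched on both strands and read as letters only, were TGGGAA of RBPJ, TGTGGT of RUNX, CACGTG of MYC, TGTTTAC of forkhead factors and AGATAA of GATA factors.
FCGR2A: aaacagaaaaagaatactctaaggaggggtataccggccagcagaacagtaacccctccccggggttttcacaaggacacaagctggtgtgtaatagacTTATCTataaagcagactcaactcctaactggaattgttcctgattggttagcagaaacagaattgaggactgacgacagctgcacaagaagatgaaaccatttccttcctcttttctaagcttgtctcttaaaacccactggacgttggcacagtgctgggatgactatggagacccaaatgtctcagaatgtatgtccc
SHC4: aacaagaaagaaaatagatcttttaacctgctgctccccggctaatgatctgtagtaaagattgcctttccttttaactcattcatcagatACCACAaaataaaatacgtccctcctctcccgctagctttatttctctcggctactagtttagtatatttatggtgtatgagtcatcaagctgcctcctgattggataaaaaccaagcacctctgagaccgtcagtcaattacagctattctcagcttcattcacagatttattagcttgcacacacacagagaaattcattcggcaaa
The capitals in FCGR2A are the reverse complement of the GATA letters at position -151 from the start, letters that 10.3% of all windows hold. Those in SHC4 are the reverse complement of the RUNX letters at position -159, held by 13.1% of all windows. The RBPJ letters, in 24.0% of all windows, the MYC letters, in 7.26%, and the forkhead letters, in 3.42%, were in none of the 5 windows, and the 2 matches lie in different genes and do not overlap. The RefSeq start of LSAMP lies 693902 bases inside the gene as GENCODE 29 draws it, so that its window lies at another start than GENCODE's outermost one. The RefSeq start of SHC4 lies 475 bases outside the gene as GENCODE 29 draws it, with the whole window outside, and that of NCKAP1 401 bases inside it. The motif position in SHC4 is counted from the RefSeq start and would differ from GENCODE's.

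Neighbouring genes were examined to see whether the falls extended along the chromosome. Taking every annotated gene that overlaps a member and the 3 nearest coding genes on each side, 25 of 52 had a row and 22 were tested, of which 3 rose and 0 fell by limma (1 lower at an unadjusted p under 0.05). The background of calls in this comparison was 12.7%, with 6.55% higher, and the median log2 difference was 0.057 over the neighbours and -0.0022 over all genes tested. HSPA6, a stress-inducible HSP70 chaperone whose gene begins 527 bases beyond the end of FCGR2A on the same strand, went the opposite way from its neighbour. It stood at 37.5, 28.6 and 14.2 normalized counts with sh1 and at 92.2, 77.3 and 31.8 with sh3, against 7.20 and 9.18 in the controls.

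Every hairpin library lay above both controls for HSPA6, and its log2 difference was 2.13 ± 0.43 (SE, limma adjusted p = 0.00963). The call was lost without control A (1.98, limma adjusted p = 0.0713), without control C (2.29, adjusted p = 0.0773) and with sh1 alone (1.501, adjusted p = 0.0956), and HSPA6 has near-identical HSP70 copies that could share its reads. Beside SHC4, the centrosomal gene CEP152, 12.6 kb away, rose by 0.27 ± 0.053 (SE, limma adjusted p = 0.00856), a call lost without control C (0.20, adjusted p = 0.146). COPS2, a subunit of the COP9 signalosome 143 kb away, rose by 0.21 ± 0.062 (SE, limma adjusted p = 0.0457), a call lost on leaving out any library other than sh1 A or sh3 C (0.16 to 0.26, adjusted p 0.0583 to 0.260). None of the 5 tested neighbours of EFEMP1 was called, from PPP4R3B (0.048, limma adjusted p = 0.517) to CFAP36 (0.17, adjusted p = 0.203). These 5 lie between 172 and 2235 kb from EFEMP1. The coding genes nearest CTSG, which are GZMH, GZMB and CMA1, had no row. Its tested neighbours KHNYN and SDR39U1 lie 132 and 131 kb away. The processed pseudogene BZW1P2 inside LSAMP had a log2 difference of -0.18 (limma adjusted p = 0.777).

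**Figure D3:**
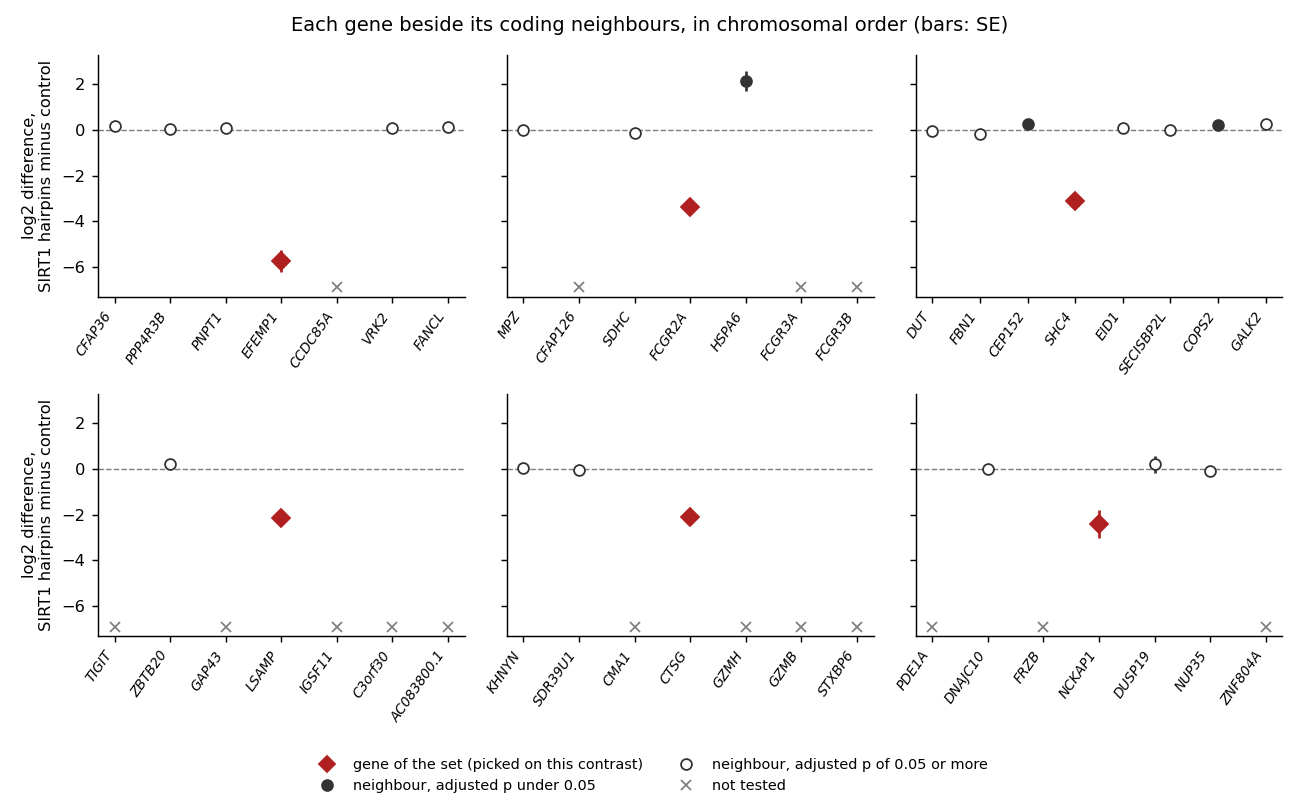
Log2 difference, SIRT1 hairpins minus control, of each gene (red diamond, picked on this contrast) and its coding neighbours in chromosomal order, with EID1, which lies inside SHC4, drawn just after it; bars are standard errors and crosses genes not tested. The tested neighbours lie near 0 except HSPA6 at 2.13, and the members, picked for large falls, lie between -5.75 and -2.10.

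Relatives and partners of each gene were taken as lists, in all 72 symbols, of which 53 had a row and 38 were tested. Of the 38, 4 rose and 5 fell (23.7% called, beside 12.7% of all genes tested), with a median log2 difference of -0.036. All 9 were called with sh3 and 3 of them with sh1, beside 2576 and 876 of the 13885 genes tested. Nothing is read from this, since the 9 were chosen by their call with both hairpins together. The sizes of these changes are not set against those of the members, which were picked for large falls. Calls ended when single libraries were left out in 7 of the 9, the exceptions being ABI1 and SHCBP1.

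Around EFEMP1, 0 of 6 tested relatives and partners were called by limma (1 at an unadjusted p under 0.05). FBLN5, fibulin-5, stood at 26.4, 28.2 and 21.0 normalized counts with sh1 and 13.8, 18.8 and 32.5 with sh3, against 44.5 and 38.9 in the controls, a difference of -0.85 ± 0.32 (SE, limma adjusted p = 0.103). EFEMP2, fibulin-4 and the closest relative by name, had a log2 difference of 0.26 (limma adjusted p = 0.291), and the most abundant of the list, the fibrillin gene FBN1, of -0.19 (adjusted p = 0.583).

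Around FCGR2A, 1 of 7 tested genes was called. FYN, a Src family kinase of T cells, fell by 0.35 in log2 (limma adjusted p = 0.00433), to between 4740 and 6464 normalized counts with the hairpins, against 6996 and 7282 in the controls, a call lost without control C (-0.33, adjusted p = 0.0775). FCER1G, the signalling chain of Fc receptors, was between 9.71 and 19.1 with the hairpins and at 14.2 and 6.94 in the controls. SYK, the kinase that FCGR2A engages in myeloid cells, was at 7.36, 5.28 and 1.62 with sh1 and at 48.4, 11.8 and 16.3 with sh3. Its controls were at 8.87 and 3.51, and sh1 against sh3 did not pass (-2.10, limma adjusted p = 0.0507).

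Around SHC4, 2 of 9 tested genes were called, both higher. SHCBP1, which binds SHC proteins and marks dividing cells, rose by 0.36 ± 0.051 (SE, limma adjusted p = 0.00163), and GAB2, a scaffold of receptor signalling, by 0.19 (adjusted p = 0.0415). The call of GAB2 was lost on leaving out any library other than sh1 A, sh1 C or sh3 C (0.15 to 0.23, limma adjusted p 0.0656 to 0.318). The other SHC adaptors did not pass: SHC1 had a log2 difference of -0.017 (limma adjusted p = 0.893) and SHC3 of -0.13 (adjusted p = 0.582). Around LSAMP the only tested relative was the IgLON gene NEGR1, at -0.063 ± 0.075 (SE, limma adjusted p = 0.633).

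Around CTSG, 2 of 4 tested genes fell and 0 rose. CTSC, the protease that activates granule serine proteases, fell by 0.25 (limma adjusted p = 0.00648; without control C -0.21, adjusted p = 0.110), and PRF1, perforin, by 0.28 (adjusted p = 0.0201). The call of PRF1 was lost without control A or control C (-0.30 and -0.26, limma adjusted p 0.0811 and 0.172). Of the granule proteases on the list, GZMA and GZMM were below 10 normalized counts in every library.

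Around NCKAP1, 2 of 11 tested genes of the WAVE complex and its Rac activators rose and 2 fell. ABI1 rose by 0.30 ± 0.050 (SE, limma adjusted p = 0.00391) and WASF2 by 0.18 (adjusted p = 0.0457), while BRK1 fell by 0.23 (adjusted p = 0.0385) and RAC1 by 0.17 (adjusted p = 0.0261). The calls of WASF2, BRK1 and RAC1 were each lost without control A, control C or sh3 A, with adjusted p between 0.0546 and 0.252, as were those of WASF2 and BRK1 without sh3 B and of WASF2 without sh1 B. NCKAP1L, the paralog that takes the place of NCKAP1 in blood cells, stood between 6224 and 6991 normalized counts with the hairpins, against 6279 and 6274 in the controls, and was not called (0.086, limma adjusted p = 0.267). The most abundant partner, CYFIP2, had a log2 difference of -0.11 (limma adjusted p = 0.135).

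**Figure D4:**
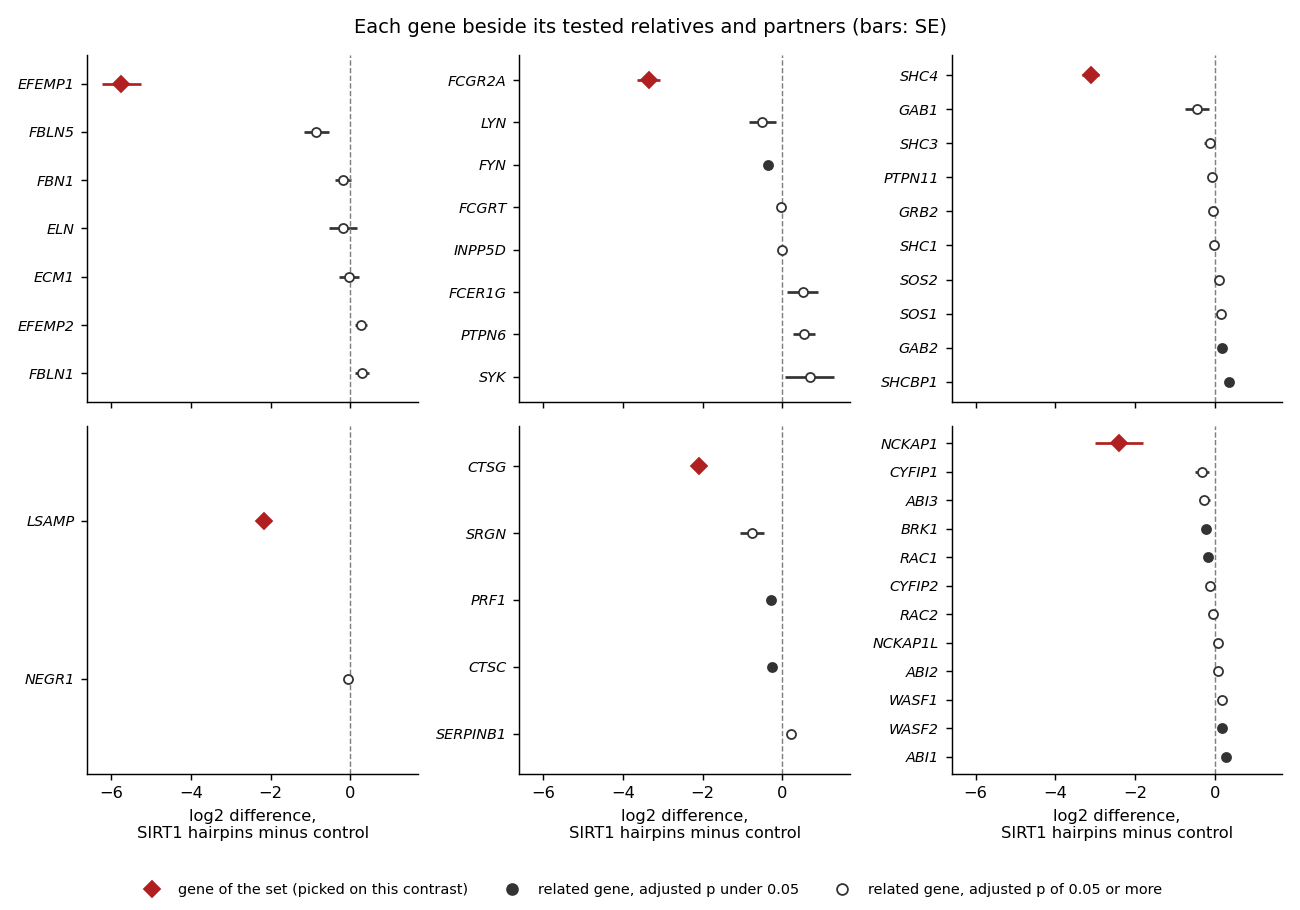
Log2 difference, SIRT1 hairpins minus control, of each gene (red diamond, picked on this contrast) above its tested relatives and partners; bars are standard errors and filled circles are past an adjusted p of 0.05. The called relatives lie between -0.35 and 0.36, and the members, picked for large falls, between -5.75 and -2.10.

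Several members are typical of other cell types, and markers of those types were read beside them. The myeloid list, with 9 of 14 markers in the table, summed to between 36.4 and 112 normalized counts in the hairpin libraries, against 63.9 and 71.1 in the controls. Its markers did not share a direction. MPO was at most 8.56 with the hairpins and at 6.40 and 14.0 in the controls. ITGAM was between 0.884 and 34.6 with the hairpins and at 0.852 and 2.23 in the controls. None of the 2 tested myeloid markers was called by limma (0 at an unadjusted p under 0.05). ELANE, PRTN3, AZU1, CEBPA and CEBPE had no row and were not analysed here. The 2 neural markers in the table, TUBB3 and SYT1, summed to between 2.78 and 10.2 with the hairpins, against 10.4 and 5.24 in the controls.

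The fibroblast and epithelial list, 11 of 13 in the table, summed to between 2471 and 2946 with the hairpins, against 3401 and 3449 in the controls. Most of this was PDGFRB, between 1771 and 2368 with the hairpins and at 2456 and 2579 in the controls. Of the 5 tested markers of the list 0 rose and 2 fell, PDGFRB by 0.34 (limma adjusted p = 0.00785) and FN1 by 0.95 (adjusted p = 0.00266). Of all genes tested 6.55% rose and 6.19% fell, and nothing is read from 2 of 5. With sh1 alone the log2 difference of FN1 was -0.29 (limma adjusted p = 0.342) and that of PDGFRB -0.46 (adjusted p = 0.00608). With sh3 alone it was -1.62 for FN1 (limma adjusted p = 0.000104) and -0.23 for PDGFRB (adjusted p = 0.0533). COL1A1, COL1A2 and DCN were at most 19.4 with the hairpins and at most 9.48 in the controls. The platelet list, 2 of 5 in the table, summed to between 73.3 and 114 with the hairpins, against 115 and 76.7 in the controls. Most of this was GP1BA, which was not called (limma adjusted p = 0.748). The B lineage list, 4 of 5 in the table, summed to between 18021 and 25479, against 24454 and 26205, nearly all of it CD79A, which fell by 0.25 (limma adjusted p = 0.00728). For CD79A the difference was -0.43 with sh1 (limma adjusted p = 0.000991) and -0.059 with sh3 (adjusted p = 0.480). CD79B was higher with sh3 (0.56, limma adjusted p = 0.00192) and did not pass with sh1 (-0.14, adjusted p = 0.411) or with both together (0.21, adjusted p = 0.112). The part of these cell types in the falls was not tested.

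Likeness across the 8 libraries was described by Pearson correlations of log2(normalized counts + 1), which mostly carry the gap between the arms that the genes were picked for. Between the 6 genes these ran from 0.68, between CTSG and NCKAP1, to 0.98, between EFEMP1 and LSAMP. Among the 11399 genes that averaged 50 or more, EFEMP1 was most like SCD, the stearoyl-CoA desaturase (0.99), then ARF3 and SLC38A1. SHC4 was most like the processed pseudogene AC104850.1 (0.99), then SCD and TREML2, and FCGR2A most like SHC4 itself (0.98), then SCD and TREML2. LSAMP was most like the choline transporter SLC44A1 (0.99), then the Src family kinase FGR and EFEMP1.

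CTSG, which was lower with sh3 than with sh1, had a profile closest to PSAP, the precursor of lysosomal saposins (0.998), then to NEIL2 and LINC00680. PSAP stood at 28919.9, 29193 and 28794 normalized counts with sh1 and at 22768, 23119 and 23270.1 with sh3, against 39502 and 38678 in the controls, the same order of groups as CTSG. NCKAP1 was most like PSMD7 (0.97), RBM4B and SETD1A, genes with their highest value in control C. SETD1A, a histone H3 lysine methyltransferase, stood at between 2713 and 3158 with the hairpins, against 3117 in control A and 4188 in control C.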

How the data were processed

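The authors deposited 1 table of normalized counts per gene symbol, a signal scaled between libraries and not per length; kallisto 0.44.0, DESeq and hg38 are named in the submitters' processing notes. Columns were assigned to libraries by their titles. The 13885 genes averaging 10 or more entered, as log2(value + 1), 1 limma 3.58.1 model (R 4.3.3) with 3 group means, 5 residual degrees of freedom and a variance prior that followed the mean. Tests were two-sided, with Benjamini-Hochberg adjustment over all genes tested and calls at an adjusted p under 0.05. The fit was tested on simulated data. Whole reads were not used, so that depth per library is known only as the sum of normalized counts.

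The genes, lists and naming rule were chosen with earlier results of these data known. Named were the 6 genes, SIRT1, of each list the called genes (at most 4) and the most abundant, all tested overlapping or called neighbours, the 3 genes most like each member and the 5 other genes with the largest falls; FBLN5, EFEMP2, FCER1G, SYK, SHC1, SHC3, NCKAP1L, FCGR2B, PPP4R3B, CFAP36, GZMA, GZMM and the single markers were added after their values were seen. Neighbours and coordinates come from GENCODE 29 on GRCh38, the assembly hg38 denotes.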

Additional observations from a re-analysis of the deposited data

Results flagged for a closer look

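The effects of sh1 and sh3 against control differed, by the test of sh1 against sh3 in limma, for CTSG and for several of the other genes named above. In CTSG the sh1 effect minus the sh3 effect was 1.06 in log2. In the named relatives of the 6 genes this difference was -0.25 for FYN, -0.22 for GAB2, -0.18 for SHCBP1, -0.29 for NEGR1, 0.21 for CTSC and 0.28 for BRK1. NEGR1, the IgLON relative of LSAMP, stood at 450.1, 474 and 461 normalized counts with sh1 and at 586, 577 and 536 with sh3, against 538 and 529 in the controls. CTSC and CTSG were both lower with sh3 than with sh1. Among cell type markers it was 0.25 for CD3D, 0.49 for CD3G, 0.48 for CD7, -0.23 for PDGFRB, 1.33 for FN1, -0.80 for ACTA2, -0.37 for CD79A and -0.70 for CD79B. Among genes most like CTSG it was 0.33 for PSAP and 0.21 for NEIL2. Among other genes with large falls it was 4.45 for OR10R2, 3.297 for CD1E and 4.47 for CD300A. Of all genes tested 11.4% differed between the constructs, and the sets of 2 and 3 libraries are too small for a search for single outlying libraries.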

How the results depend on the processing

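Under 15 alternatives, all of them planned, the log2 difference between SIRT1 hairpins and control kept its sign in all 6 genes, and the sh1 against sh3 test kept its side of the threshold in all 6. CTSG moved by more than its residual spread with a pseudocount of 5 (-2.01), and NCKAP1 ranged from -3.89 to -0.93 when single libraries were left out, the ends being without control A and without control C. Counts of called genes were 1768 for the hairpins together, 876 for sh1, 2576 for sh3 and 1589 between constructs. Without the mean-dependent prior they were 744, 236, 1531 and 968, with 5 related genes and 0 neighbours called (4 neighbours at an unadjusted p under 0.05). Leaving out 1 library gave 339 to 1898, 159 to 782, 860 to 2931 and 925 to 1770, with 2 to 10 related genes and 0 to 4 neighbours; the lowest counts against control came without control C, where the remaining control is assumed to vary like the other groups. Libraries with the same letter did not deviate together over the genes tested (correlations of -0.062 to 0.058), and the main fit used no pairing by letter. With so few libraries per group this cannot exclude a batch shared by letter. With the letter as a replicate block the counts included 549 genes for sh1 and 2 neighbours. The cause of these shifts was not tested. Of the values of single related or neighbouring genes 212 kept their side of the threshold, 42 lost it and 0 called values changed sign. Centring each library moved the median of all genes by under 0.1. Levels of a few normalized counts, as for EFEMP1 with the hairpins, limit the precision of its fold.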

Other observations

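The 5 other genes that averaged 50 or more, had every hairpin library below both controls and showed the largest falls lay between the 6 in rank, apart from the pseudogene that led them. The processed pseudogene AC104850.1 (chromosome 3, 39338129 to 39338879) was at 0, 0 and 0.954 normalized counts with sh1 and at 2.68, 1.15 and 3.56 with sh3, against 210.4 and 268 in the controls, low with both constructs. The transcribed pseudogene AC004057.1 was uneven, at 173, 0 and 0 with sh1 and at 38.6, 240.3 and 192 with sh3, against 319 and 338 in the controls (limma adjusted p = 0.149). Reads of both could be shared with parent genes.

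OR10R2, CD1E and CD300A had large mean falls that came mostly from sh3. OR10R2, an olfactory receptor gene, was 75.5, 73.8 and 83.4 with sh1 and 4.16, 0 and 7.96 with sh3, against 188 and 201 in the controls. CD1E, a lipid antigen presenting molecule of thymocytes, was between 2171 and 2384 with sh1 and between 149 and 418 with sh3, against 4648 and 4417. CD300A, an inhibitory receptor, was between 352 and 376 with sh1 and between 8.90 and 21.9 with sh3, against 425 and 422.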
